A study of Mus musculus with 24 samples.

Results

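The genes described here are 9 factors that mark the primitive streak and the mesendoderm of the mouse embryo: the T-box factors *T* and *Eomes*, the homeobox factors *Mixl1*, *Gsc*, *Evx1* and *Lhx1*, the bHLH factor *Mesp1*, the forkhead factor *Foxa2* and the secreted antagonist *Cer1*. They were chosen by name for their roles, and all 9 were found once each among the 25965 entries of the expression table. RNA-seq had been done on male C57/Bl6 mESCs, mouse embryonic stem cells with 1 X chromosome, that were expanded in 2i medium and differentiated by weaning into DME HiHi serum medium with no lineage-directing factor named. Every culture, controls included, was transduced with an shRNA on day 2 and selected with puromycin from day 3. The 20 libraries analysed were 4 of Nons, a non-silencing hairpin, 8 of *Smarcc1* knockdown (hairpins Smarcc1.6 and Smarcc1.7) and 8 of *Smarca4* knockdown (Smarca4.4 and Smarca4.6), with 1 library for each hairpin on each of days 4, 5, 6 and 7. *Smarcc1* and *Smarca4* encode a core subunit and the ATPase of BAF nucleosome remodelling complexes. As nothing says that libraries of a hairpin came from separate cultures, the p-values below measure the spread between these libraries only, and any difference from Nons rests on its 1 series of cultures. In the limma tests that spread comes from the 2 hairpins of a gene on the same day. Nons, with 1 library per day, adds nothing to it. A further 4 libraries of a second Nons replicate were not analysed here.

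In the gastrulating embryo, epiblast cells pass through the primitive streak and leave it as mesoderm or definitive endoderm. Nodal, Wnt3 and Bmp4 signals from the epiblast and the extraembryonic tissues induce the streak, and the T-box factors act early in this programme. Embryonic stem cells pass through a related sequence when these signals are active, and drift mainly towards other fates when they are not.

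The libraries held 6829596 to 27472885 reads, and the smallest was Smarca4.4 on day 5. *Smarcc1* was lower than in the Nons library of the same day in 8 of 8 *Smarcc1* knockdown libraries, at 23.7% to 60.1% of its level, and *Smarca4* in 8 of 8 *Smarca4* knockdown libraries, at 21.6% to 55.3%. A genotype label names the *Smarca4* libraries as a Smarcc knockdown, and the titles, with which these levels go, were followed. Pluripotency genes were still present, with *Pou5f1* (Oct4) between 131 and 1607 rpm (reads scaled to library size, as deposited). The sum of 6 such markers fell in Nons from 2073 rpm on day 4 to 415 rpm on day 7, and *Esrrb* ranged from 3.05 to 146 rpm. In these bulk samples, fewer cells of a type and less RNA per cell cannot be told apart.

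Most of the 9 genes were close to the lower limit of what these libraries can show. Only *Eomes*, with 40 to 257 reads per library, reached the mean log2 rpm of 0 that was asked of a gene for the main tests, and the other 8 had between 0 and 28 reads in any library. Per kilobase of merged exons, the mean level of *Eomes* was 1.71 rpm, and its lowest library, at 0.511 rpm per kb, lay above the highest library of each of the other 8 genes. *T* at 0.204, *Gsc* at 0.192 and *Mixl1* at 0.184 rpm per kb came next, with ranges over the 20 libraries that overlapped. *Evx1* at 0.0757, *Foxa2* at 0.0700, *Lhx1* at 0.0486 and *Mesp1* at 0.0446 rpm per kb followed, again with overlapping ranges, and *Cer1* was last at 0.00840 rpm per kb. The table gives an expression value to 9 of 9 genes in every library, but a library without a read carries a lowest value worth 0.9 of a read. This was so in 16 of 20 libraries for *Cer1*, in 10 for *Mesp1*, in 5 each for *Foxa2* and *Evx1*, in 4 for *Lhx1* and in 1 for *Mixl1*. For these genes the reads themselves are therefore given first, and a library with 3 reads or fewer was not told from one without the transcript.

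*Eomes*, a T-box factor needed for definitive endoderm and for the earliest mesoderm, and also for trophoblast, was lower on day 5 than on day 4 in every culture series, and its later levels differed between series. In Nons it stood at 9.35, 2.79, 4.84 and 4.42 rpm on days 4, 5, 6 and 7. In Smarcc1.6 it measured 7.03, 2.12, 4.41 and 10.8 rpm on the same days. The values of Smarcc1.7 were 7.48, 4.55, 10.1 and 12.8 rpm. All 5 culture series were lower on day 5 than on day 4, and both *Smarcc1* hairpins were at their highest on day 7. In Smarca4.4 *Eomes* measured 9.86, 5.86, 7.43 and 9.29 rpm, and in Smarca4.6 10.7, 6.37, 5.27 and 6.46 rpm. Both *Smarca4* hairpins lay above Nons on each of the 4 days, whereas the *Smarcc1* hairpins both lay below Nons on day 4, on both sides of it on days 5 and 6, and both above it on day 7.

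**Figure D1:**
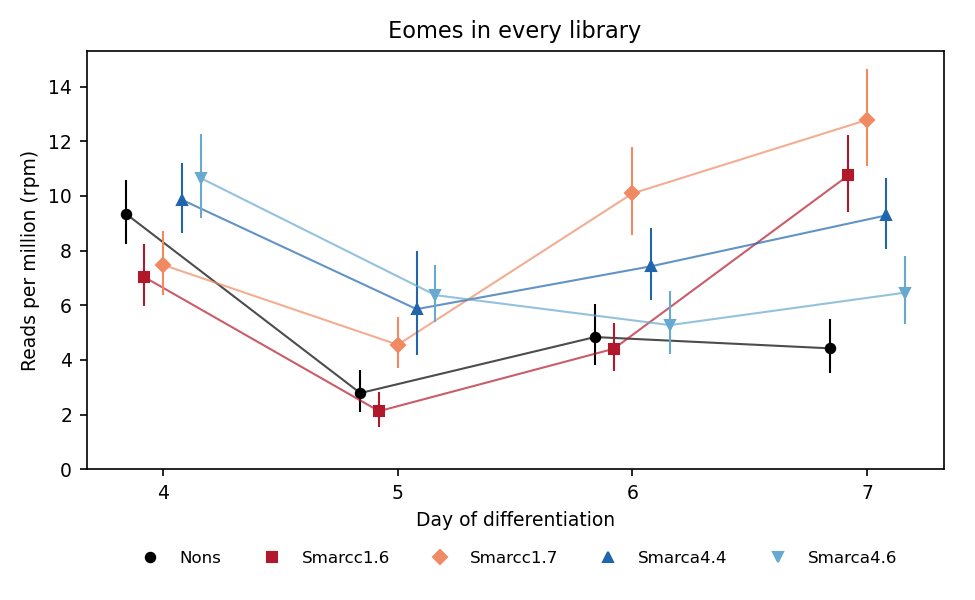
*Eomes* in rpm (vertical axis, from 0) on days 4 to 7 of differentiation, with 1 point for each library and a line for each culture series. Bars are exact 95% Poisson intervals of the reads and cover counting error only. All 5 series drop from day 4 to day 5, from 7.03 to 10.7 rpm down to 2.12 to 6.37 rpm.

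The fall from day 4 to day 5 was the change of *Eomes* that passed the test. Averaged over the groups it was -1.24 on the log2 scale (SE 0.27), a fold of 0.424 with a 95% interval of 0.282 to 0.637, and its adjusted p was 0.00364 (limma, Benjamini-Hochberg over 13296 genes). It was seen in 5 of 5 series, by a factor of 1.64 to 3.36. Of all genes tested, 38.7% passed in the same comparison. The later steps did not pass: the difference was 0.64 (SE 0.27, adjusted p = 0.0873) for day 6 against day 5, where 32.3% of genes passed, and 0.33 (SE 0.27, adjusted p = 0.360) for day 7 against day 6, where 27.5% did. When the 4 days of a culture series were treated as a replicate block, the step from day 5 to day 6 passed as well (adjusted p = 0.0397). It was upward in 4 of 5 series, the exception being Smarca4.6. Summed over the 5 libraries of a day, *Eomes* had 1001 reads on day 4, 387 on day 5, 546 on day 6 and 835 on day 7.

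Averaged over the 4 days, *Eomes* was 0.42 higher on the log2 scale in *Smarcc1* knockdown than in Nons (SE 0.25, adjusted p = 0.361), a fold of 1.33 with a 95% interval of 0.918 to 1.94. Against Nons, the *Smarca4* knockdown libraries were 0.61 higher (SE 0.25, adjusted p = 0.190), a fold of 1.53 with an interval of 1.05 to 2.22. Neither passed the threshold, in comparisons where 10.6% and 6.71% of all genes did. The *Smarca4* difference was upward in 8 of 8 libraries, and the *Smarcc1* difference in 4 of 8. In the exact permutation test, in which on each day any of the 3 libraries may play Nons, the *Smarca4* difference of 2.30 rpm gave a 2-sided p of 0.0247, and the *Smarcc1* difference of 2.05 rpm gave 0.346. There are 81 such arrangements and the smallest p they can give is 0.0123. They count the 4 days as independent, although the Nons libraries are 1 series of cultures. Where a series deviates alike on several days, these p-values are too small. These are unadjusted values from a family of 27 exact tests, 3 for each gene, and they were chosen after the reads had been seen. The knockdowns did not differ detectably from each other, at -0.20 for *Smarcc1* minus *Smarca4* (SE 0.20, adjusted p = 0.737) with a fold interval of 0.643 to 1.18, where 4.09% of genes passed. The tests of whether the difference from Nons varied between days gave an adjusted p of 1.000 for both knockdowns, and 0.256% and 0.00752% of genes passed them for *Smarcc1* and *Smarca4*, respectively.

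*Eomes* is also a trophoblast gene, and several of the other factors are used in visceral endoderm, so markers of those tissues are given beside it. The summed level of 6 trophoblast markers was 17.9 to 37.7 rpm over the libraries of day 4 and 110 to 187 rpm over those of day 7. In it *Krt7* alone ranged from 1.26 to 154 rpm, while *Elf5*, which defines early trophoblast, had 0 to 7 reads and *Cdx2* 0 to 28. From day 4 to day 5, where *Eomes* fell in all 5 series, 1 of the 4 trophoblast genes tested rose and 1 fell. The trophoblast sum was above that of Nons in both *Smarca4* hairpins on days 4, 5 and 6 (59.8 and 60.8 rpm against 50.5 on day 6). On day 7 it was below Nons (141 and 184 rpm against 187). By the averaged test 2 of 4 tested markers, *Tfap2c* and *Hand1*, were higher in *Smarca4* knockdown, and *Tfap2c* held with the replicate block. In *Smarcc1* knockdown *Tfap2c* was higher and *Krt7* lower, and both held with the block. Of 9 primitive and visceral endoderm markers the summed level went from 5.33 to 10.7 rpm on day 4 to 34.7 to 45.9 rpm on day 7, with most of it in *Dab2* (0.549 to 36.1 rpm). The defining visceral endoderm genes *Afp* and *Ttr* were at 0 to 15 and 0 to 22 reads, and *Sox17* at 0 to 12. Against Nons, 2 of the 4 testable markers of this list were higher in *Smarcc1* knockdown, *Gata4* (1.14, adjusted p = 0.00652) and *Cubn* (1.17, adjusted p = 0.0125), and *Gata4* in *Smarca4* knockdown (0.89, adjusted p = 0.0383). In *Smarca4* knockdown the median of the 4 was -0.33. There the summed level was below Nons on day 4 (5.33 to 6.23 against 7.32 rpm) and day 7 (34.7 to 36.2 against 42.7 rpm). It was above Nons on day 5 and on both sides of it on day 6. Without the filter 4 of 9 were higher in *Smarcc1* knockdown, *Sox7* and *Ttr* among them, and 0 of 9 in *Smarca4* knockdown. None of these filtered endoderm calls against Nons held with the replicate block. The part of either tissue in the level of *Eomes* was not tested.

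*T* (Brachyury), the pan-streak factor that mesoderm cells need to leave the streak, had 1 to 19 reads per library, and more than 3 in 18 of the 20 (it had 3 or fewer in 2). Nons gave 11, 13, 5 and 4 reads on days 4 to 7, Smarcc1.6 gave 15, 12, 10 and 8, and Smarcc1.7 gave 12, 13, 10 and 1. Smarca4.4 gave 15, 3, 5 and 12 reads, of which the 3 came from the smallest library, and Smarca4.6 gave 10, 19, 4 and 7. The groups overlapped. Pooled over libraries, *T* measured 0.557 rpm on day 4 (exact 95% Poisson interval 0.428 to 0.713), 0.646 on day 5, 0.391 on day 6 and 0.335 on day 7 (0.229 to 0.474), and the exact permutation test of the days within series gave p = 0.0526. Between groups, pooled *T* was 0.404 rpm in Nons (0.278 to 0.567), 0.497 in *Smarcc1* knockdown (0.395 to 0.618) and 0.521 in *Smarca4* knockdown (0.410 to 0.654), and knockdown libraries lay above and below the Nons library of their day 5 to 3 in either case.

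*Evx1*, a homeobox factor of the posterior streak that follows Nodal and Bmp signals, was mainly a gene of day 4. On that day it had 6 reads in Nons, 28 in Smarcc1.6, 12 in Smarcc1.7, 13 in Smarca4.4 and 8 in Smarca4.6. On day 5 the same series had 1, 0, 8, 1 and 3 reads, on day 6 they had 0, 1, 0, 5 and 1, and on day 7 they had 1, 1, 2, 0 and 0. Day 4 was the highest day in 5 of 5 series, by levels as well as by reads. The pooled level was 0.592 rpm on day 4 (exact 95% Poisson interval 0.459 to 0.752) and 0.0872 rpm over days 5 to 7 (0.0559 to 0.130). When all entries of the table were tested without a filter on low values, *Evx1* fell by 2.23 on the log2 scale from day 4 to day 5 (SE 0.60, adjusted p = 0.0124), in a comparison that 22.8% of all entries passed. The call was lost without the Smarcc1.6 series, which held the library of 28 reads (-1.49, adjusted p = 0.0848), and without the Smarca4.4 series (-2.21, adjusted p = 0.0636), and the direction held in both. The exact permutation test of the days within series, with 331776 arrangements and a smallest possible p of 3.01e-06, gave p = 0.00187.

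*Eomes* lies on chromosome 9 (mm10, 118478212 to 118486132), *T* on chromosome 17 (8434423 to 8442496) and *Evx1* on chromosome 6 (52313498 to 52318378), all on the plus strand. *Eomes* and *Evx1* were the members that passed the test from day 4 to day 5, and *T* is shown beside them as a streak gene that did not (difference 0.22). The 150 bases upstream of the RefSeq start of each, which for *Eomes* lies upstream of the start given above, are as follows (RefSeq windows, GRCm38.p6, 5′ to 3′), with capitals for matches to the searched motifs other than the E-box.
*Eomes* (chr9:118478039-118478188): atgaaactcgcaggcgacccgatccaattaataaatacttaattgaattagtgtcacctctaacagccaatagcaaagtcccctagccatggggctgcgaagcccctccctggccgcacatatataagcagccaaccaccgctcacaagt
*T* (chr17:8434273-8434422): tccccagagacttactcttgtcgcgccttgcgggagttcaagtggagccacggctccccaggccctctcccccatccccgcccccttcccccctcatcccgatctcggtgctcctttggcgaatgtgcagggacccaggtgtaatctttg
*Evx1* (chr6:52313348-52313497): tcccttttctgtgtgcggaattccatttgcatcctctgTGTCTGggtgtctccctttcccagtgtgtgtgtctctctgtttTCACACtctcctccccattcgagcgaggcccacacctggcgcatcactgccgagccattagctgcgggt
The capitals in *Evx1* are TGTCTG, the SMAD motif CAGACA read on the other strand, and TCACAC, a T-box site. The motifs were searched upstream of all starts in windows longer than the stretches shown (32851 windows, both strands), so the shares do not apply to 150 bases alone. CAGACA and TCACAC are held by 17.1% and 12.3% of these windows, and neither is found in the windows of *Eomes* or *T*. The E-box CANNTG, held by 66.2% of all windows, occurs in *T* and *Evx1* but not in *Eomes*. The letters CTTTGA of LEF/TCF factors (13.8% of all windows) occur in *T*, upstream of the stretch shown, and in *Mesp1*. AATNNACA (10.9%) and GTCTAGAC (0.167%) occur in none of the 8 members with a window, TATAAA (12.4%) in *Gsc* and *Foxa2*, and TAATTA (4.84%) in *Cer1*. *Mixl1* has no window in the table used. No match in the stretches shown overlaps another. These are matches of letters only, and nothing about binding was measured.

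*Mixl1*, a homeobox factor that moderates mesoderm and favours endoderm, had 7, 8, 2 and 2 reads in Nons on days 4 to 7. Smarcc1.6 gave 0, 15, 16 and 14 reads, and Smarcc1.7 gave 6, 11, 10 and 10. In Smarca4.4 there were 5, 7, 6 and 12 reads, and in Smarca4.6 8, 9, 3 and 5. From day 5 on, the 6 *Smarcc1* knockdown libraries all lay above the Nons library of their day, and on day 4 one hairpin had no read. Pooled over days, *Mixl1* measured 0.233 rpm in Nons (exact 95% Poisson interval 0.140 to 0.363), 0.504 in *Smarcc1* knockdown (0.401 to 0.625) and 0.382 in *Smarca4* knockdown (0.288 to 0.498). The difference from Nons did not pass the test over all entries, at 1.07 on the log2 scale for *Smarcc1* (SE 0.49, adjusted p = 0.262) and 0.96 for *Smarca4* (SE 0.49, adjusted p = 0.424), where 6.92% and 3.42% of entries passed. The *Smarcc1* difference passed in 1 of 15 alternatives, without day 4 (1.85, adjusted p = 0.0275), and ranged from 0.29 to 1.85 with adjusted p up to 0.994. The exact permutation test gave p = 0.0370 for *Smarcc1*, with 7 of 8 libraries higher, and p = 0.148 for *Smarca4*, with 6 of 8 higher. Here too the days of a series were counted as independent. Between days 4 and 5 *Mixl1* differed by 1.40 (SE 0.53, adjusted p = 0.0664), a step that was called in 4 of 13 alternatives, voom weights on the reads among them (1.47, adjusted p = 0.0435).

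**Figure D2:**
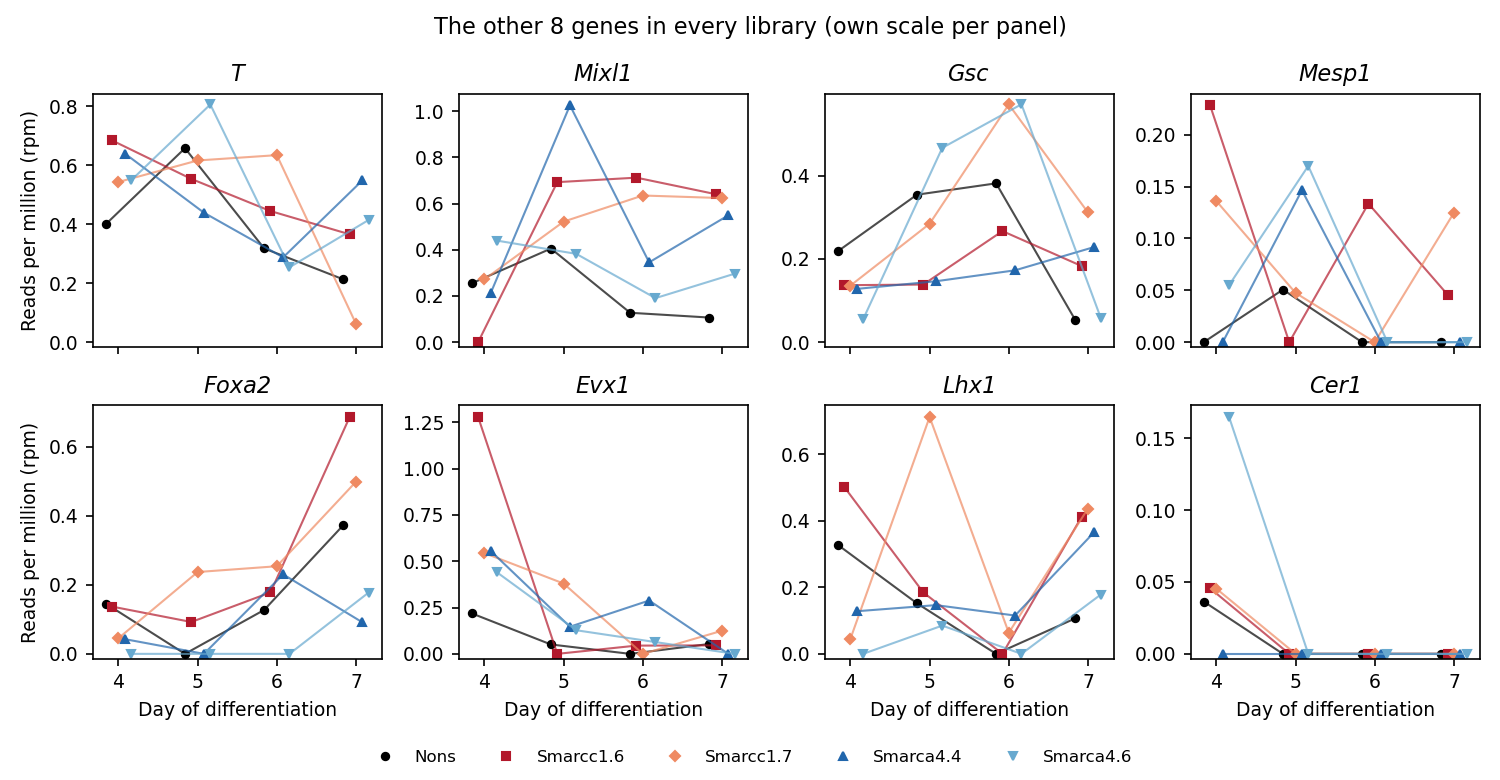
Level in rpm (vertical axes, each panel on its own scale) of the 8 genes other than *Eomes* on days 4 to 7, with 1 point for each library and a line for each culture series. *Evx1* is highest on day 4 in all 5 series, the *Smarcc1* knockdown points of *Mixl1* lie above Nons from day 5 on, and *Cer1* has reads on day 4 only.

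*Gsc*, a homeobox repressor of the organizer, had 6, 7, 6 and 1 reads in Nons on days 4 to 7. It had 3, 3, 6 and 4 in Smarcc1.6 and 3, 6, 9 and 5 in Smarcc1.7. The Smarca4.4 libraries gave 3, 1, 3 and 5 reads and those of Smarca4.6 gave 1, 11, 9 and 1. Several of these libraries hold 3 reads or fewer, so the days were compared over all series together and not ranked within each. The pooled level was 0.141 rpm on day 4 (exact 95% Poisson interval 0.0809 to 0.230), 0.302 on day 5, 0.379 on day 6 (0.261 to 0.532) and 0.168 on day 7 (0.0959 to 0.272). The exact permutation test of the days gave p = 0.0160, while none of the 3 steps passed over all entries (lowest adjusted p = 0.0574, for -1.66 from day 6 to day 7, which was called in 3 of 13 alternatives), where 17.3% of entries passed from day 5 to day 6 and 12.9% from day 6 to day 7. Pooled levels of 0.245 rpm in Nons, 0.240 in *Smarcc1* knockdown and 0.236 in *Smarca4* knockdown lay within each other's counting intervals.

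*Lhx1*, a LIM homeobox factor of the anterior streak and of intermediate mesoderm, had 9, 3, 0 and 2 reads in Nons on days 4 to 7. In Smarcc1.6 it had 11, 4, 0 and 9 and in Smarcc1.7 1, 15, 1 and 7. In Smarca4.4 it had 3, 1, 2 and 8 reads and in Smarca4.6 0, 2, 0 and 3. The 5 libraries of day 6 together had 3 reads, against 25 on day 5 and 29 on day 7, and within most series these reads are too few to rank the days. Over all entries these steps came to -1.57 (SE 0.63, adjusted p = 0.101) and 1.87 (SE 0.63, adjusted p = 0.0580), and they were called in 2 and 3 of 13 alternatives, the second with voom weights (2.50, adjusted p = 0.0494). The exact permutation test over the 4 days gave p = 0.144. Pooled *Lhx1* was 0.171 rpm in Nons (exact 95% Poisson interval 0.0937 to 0.287), 0.295 in *Smarcc1* knockdown (0.217 to 0.391) and 0.132 in *Smarca4* knockdown (0.0795 to 0.206).

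*Foxa2*, a forkhead factor of the organizer, axial mesendoderm and endoderm, was highest late. Nons had 4, 0, 2 and 7 reads on days 4 to 7, Smarcc1.6 had 3, 2, 4 and 15, and Smarcc1.7 had 1, 5, 4 and 8. Smarca4.4 had 1, 0, 4 and 2 reads and Smarca4.6 had 0, 0, 0 and 3. Both *Smarca4* hairpins had 3 reads or fewer on both day 4 and day 7, and in the other 3 series day 7 was above day 4. The pooled level was 0.0796 rpm on day 4 (exact 95% Poisson interval 0.0364 to 0.151) and 0.367 rpm on day 7 (0.256 to 0.510). The exact permutation test of the days gave p = 0.00479, and no single step passed over all entries, the step from day 6 to day 7 doing so in 1 of 13 alternatives. Pooled *Foxa2* was 0.258 rpm in *Smarcc1* knockdown (0.186 to 0.349) and 0.0695 rpm in *Smarca4* knockdown (0.0333 to 0.128), on either side of 0.159 rpm in Nons (0.0847 to 0.272). Single libraries of the knockdowns overlapped. On day 6 Smarca4.4 had 0.230 rpm, between Smarcc1.6 (0.178) and Smarcc1.7 (0.254). The difference between the knockdowns, 1.23 on the log2 scale, did not pass the test over all entries (SE 0.40, adjusted p = 0.138), where 2.64% of entries passed, nor with voom weights (1.72, adjusted p = 0.0533), and it passed in 1 of 15 alternatives, at an adjusted p of 0.0499.

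*Mesp1*, the bHLH factor of nascent cardiac and cranial mesoderm, had 22 reads in 20 libraries. A single one was in Nons, on day 5. *Smarcc1* knockdown had 15, with 5, 0, 3 and 1 in Smarcc1.6 and 3, 1, 0 and 2 in Smarcc1.7, and *Smarca4* knockdown had 6, with 1 in Smarca4.4 and 1 and 4 on days 4 and 5 of Smarca4.6. Pooled levels were 0.0122 rpm in Nons (exact 95% Poisson interval 0.000310 to 0.0682), 0.0921 in *Smarcc1* knockdown (0.0516 to 0.152) and 0.0417 in *Smarca4* knockdown (0.0153 to 0.0908). The *Smarcc1* difference passed neither over all entries (0.88, SE 0.35, adjusted p = 0.181) nor in the exact permutation test (p = 0.136). All but 2 libraries were at 3 reads or fewer, so *Mesp1* cannot be told from absent in most of them.

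*Cer1*, a secreted antagonist of Nodal, Bmp and Wnt made by anterior endoderm, had 6 reads in all, every one of them on day 4. They were 1 each in Nons, Smarcc1.6 and Smarcc1.7 and 3 in Smarca4.6, while Smarca4.4 had none. On days 5 to 7 there were 0 reads in 15 libraries, which allows a level of up to 0.0134 rpm at the upper end of the exact 95% Poisson interval, against 0.0531 rpm (0.0195 to 0.115) on day 4. The exact permutation test of the days gave p = 0.0156. It rests on these 6 reads, with no library above 3. As each series with reads had them on a single day, no arrangement of them gives a lower p. The fitted differences of so sparse a gene depend on the lowest value given to libraries without a read, and none is given.

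**Figure D3:**
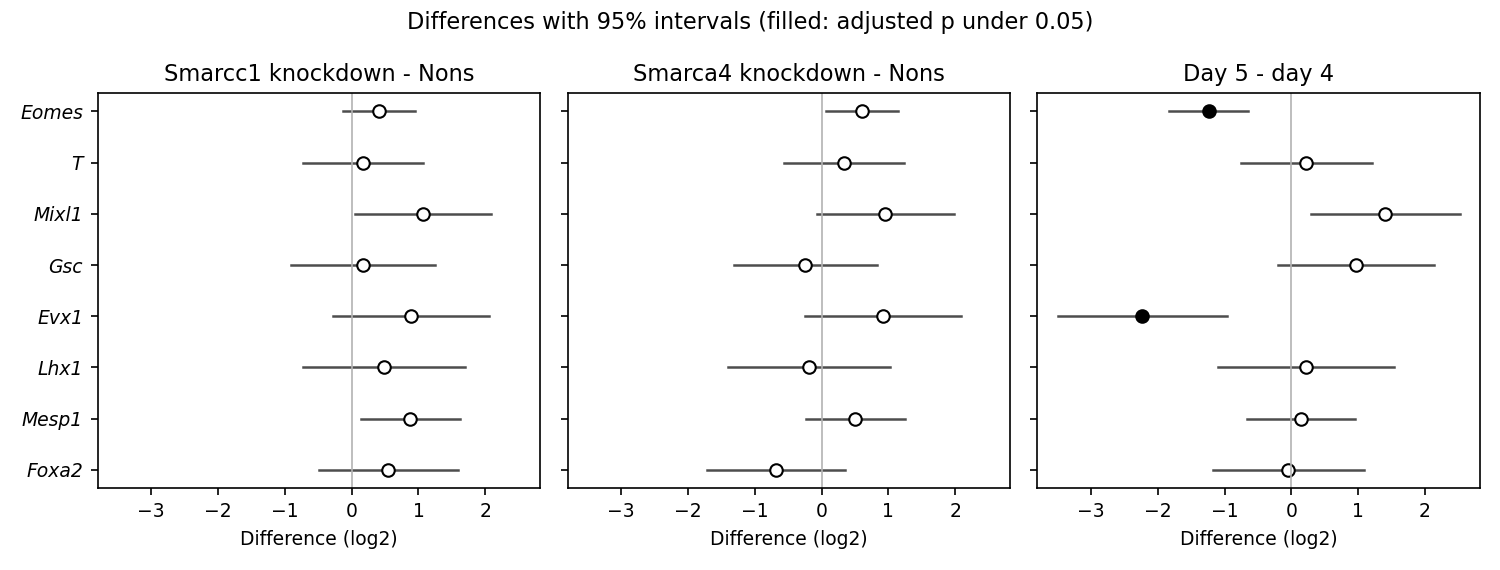
Differences on the log2 scale (horizontal axes) with 95% intervals for *Smarcc1* knockdown minus Nons, *Smarca4* knockdown minus Nons and day 5 minus day 4, with *Eomes* from the test of 13296 genes and 7 other members from the test of all entries. Filled points passed an adjusted p of 0.05, which holds for *Eomes* and *Evx1* between days 4 and 5 and for no member between knockdown and Nons. *Cer1*, with 6 reads, is left out.

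Counted over all entries without a filter, 0 of 9 members passed in either knockdown against Nons by limma, where 6.92% and 3.42% of entries passed, although *Mixl1* and *Mesp1* in *Smarcc1* knockdown and *Eomes* in *Smarca4* knockdown had an unadjusted p under 0.05. With voom weights 0 of the 8 members with at least 10 reads passed in either. Between days 4 and 5, 2 of 9 members passed, *Eomes* and *Evx1*, both downward, against 22.8% of all entries. None passed from day 5 to day 6 or from day 6 to day 7, and none had a difference from Nons that varied detectably with the day, where 0.0847% and 0.00385% of entries passed for *Smarcc1* and *Smarca4*. The test over all entries is affected by the different lowest values of the libraries, which moved its median difference to 0.24 in *Smarca4* knockdown against Nons and to 0.35 between days 4 and 5, whereas these medians were 0.06 and -0.03 over the 13296 genes that passed the filter.

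Genes that act with these factors were counted in the same tests, over 3 lists. Of all genes tested, 10.6% passed in *Smarcc1* and 6.71% in *Smarca4* knockdown against Nons. When the days of a series were treated as a replicate block these shares were 4.55% and 1.94%, and the calls that held are given for each list. Of 10 inducers of the streak, 9 could be tested. *Nodal*, the TGF-beta ligand that drives mesendoderm, ranged from 42.0 to 171 rpm, its co-receptor *Tdgf1* (Cripto) from 71.4 to 1543 rpm, and *Wnt3*, the ligand that starts the streak, from 1.14 to 7.14 rpm. In *Smarcc1* knockdown 1 of the 9 passed the test against Nons, *Nodal*, which rose by 0.56 (SE 0.12, adjusted p = 0.00897). A count of 1 in 9 is about the share of all genes, and the median of the list was 0.02 against 0.06 over all genes. In *Smarca4* knockdown 2 passed, in opposite directions: *Bmp4* rose by 0.74 (SE 0.16, adjusted p = 0.0136) and *Wnt3* fell by 0.72 (SE 0.19, adjusted p = 0.0403). *Nodal* and *Bmp4* also differed between the knockdowns, with *Nodal* 0.50 higher (adjusted p = 0.0135) and *Bmp4* lower by 0.75 (difference -0.75, adjusted p = 0.00676) in *Smarcc1*. None of these calls held with the replicate block, the nearest being *Nodal* in *Smarcc1* knockdown (adjusted p = 0.0516). From day 4 to day 5, 4 of the 9 inducers passed, 3 down and 1 up, about the 38.7% of all genes that did. *Nodal* was among those that fell, by 0.82 (SE 0.13, adjusted p = 0.000466).

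Of 18 genes of the streak and nascent mesoderm, 9 could be tested. In *Smarcc1* knockdown 5 passed the test and all rose, with a list median of 1.04 against 0.06 over all genes. They included the caudal homeobox gene *Cdx4* (1.98, SE 0.22, adjusted p = 9.95e-05), the retinoic acid hydroxylase *Cyp26a1* (1.67, SE 0.22, adjusted p = 0.000336), the T-box gene *Tbx3* (1.51, SE 0.38, adjusted p = 0.0222) and the mesoderm receptor *Pdgfra* (1.38, SE 0.27, adjusted p = 0.00527). In *Smarca4* knockdown 3 passed, with *Hand1* (1.35, SE 0.31, adjusted p = 0.0215) and *Cdx4* (1.27, SE 0.22, adjusted p = 0.00402) up and the activin antagonist *Fst* down (-1.39, SE 0.26, adjusted p = 0.00722), and the median was 0.52. *Hand1* is a trophoblast gene as well. Between the knockdowns, where 4.09% of all genes passed, 4 of the 9 did and all were higher in *Smarcc1* than in *Smarca4*, namely *Cyp26a1*, *Pdgfra*, *Lefty2* and *Cdx4*. With the replicate block, 3 of the 9 held in *Smarcc1* knockdown (*Lefty2*, *Cyp26a1* and *Cdx4*), 2 in *Smarca4* knockdown (*Cdx4* and *Fst*) and 2 between the knockdowns (*Lefty2* and *Cyp26a1*). The other 9 genes of the list were below the filter, and *Msgn1* and *Aplnr* had at most 2 reads in any library. The filter averages over all 20 libraries, so a gene low in Nons can pass it through the knockdown libraries. Without the filter, 7 of 18 genes passed in *Smarcc1* knockdown, all upward, where 6.92% of entries did. Their list median was 0.79 against -0.01 over all entries. In *Smarca4* knockdown 4 of 18 passed, 3 up and 1 down, where 3.42% did, with a median of 0.43 against 0.24.

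Of 14 genes of the organizer, anterior mesendoderm and definitive endoderm, 6 could be tested, and 4 rose and 1 fell in *Smarcc1* knockdown against Nons. *Cfc1* (Cryptic), a Nodal co-receptor, rose by 2.55 (SE 0.30, adjusted p = 0.000164), *Chrd* (Chordin) by 1.29 (SE 0.31, adjusted p = 0.0168), *Hhex* by 0.85 (SE 0.20, adjusted p = 0.0158) and the Nodal antagonist *Lefty1* by 0.67 (SE 0.15, adjusted p = 0.0107), while *Otx2* was the one that fell. *Cfc1* had 0 to 67 reads per library and a mean log2 rpm of 0.06, just over the filter. A library without a read carries the lowest value, so the size of its rise in either knockdown depends on that value. In *Smarca4* knockdown 2 rose and 1 fell: *Cfc1* by 2.52 (SE 0.30, adjusted p = 0.000461) and *Chrd* by 1.26 (SE 0.31, adjusted p = 0.0280) upward, and *Otx2* downward by 0.60 (difference -0.60, SE 0.12, adjusted p = 0.00871). None of the 6 differed detectably between the knockdowns. The medians were 0.76 and 0.38, respectively. Without the filter, 5 of 14 genes passed in *Smarcc1* knockdown (median 0.76) and 3 of 14 in *Smarca4* knockdown (median 0.47). Of all entries 6.92% and 3.42% did. With the replicate block, *Cfc1* and *Lefty1* held in *Smarcc1* knockdown and *Cfc1* in *Smarca4* knockdown. *Otx2* is also a primed epiblast gene, and *Fgf5*, another of those, was lower in both knockdowns too (-1.31 and -1.10). The notochord gene *Noto* had at most 1 read and *Sox17*, of definitive endoderm, at most 12. Pluripotency markers moved in the same comparisons, with 4 of 6 higher in *Smarcc1* knockdown and 3 of 6 in *Smarca4* knockdown. The sum of the 6 in *Smarca4* knockdown was below Nons on day 6 (704 to 825 against 1012 rpm). On the other days it lay on both sides of Nons (377 to 416 against 415 rpm on day 7). In *Smarcc1* knockdown the sum was above Nons on days 4, 5 and 7 and on both sides of it on day 6. Single markers of other tissues moved as well. Neural *Sox1* was higher in both knockdowns (2.40 and 2.33), as the only 1 of 5 tested neural markers called in each. The neural sum was above Nons on day 4 (116 to 136 rpm in *Smarcc1* and 95.4 to 107 in *Smarca4* knockdown against 74.7). On day 7 it was below Nons (130 to 136 and 107 to 112 rpm against 138). *Wt1*, of other mesoderm, was lower in both knockdowns (-1.25 and -1.17), as 1 of 2 tested markers of its list. With the replicate block 3 of the 6 pluripotency markers held in each knockdown, as did *Sox1* and *Wt1*, while *Fgf5* held in *Smarcc1* knockdown and not in *Smarca4* knockdown. The summed level of the 5 cardiac and other mesoderm markers on day 6 was 10.7 to 10.9 rpm in *Smarcc1* knockdown and 11.6 to 12.1 in *Smarca4* knockdown, against 26.0 in Nons. On day 5 these sums were 9.23 to 11.0 and 5.71 to 7.18 rpm, against 11.1. *Wt1* had the highest median of the list (11.0 rpm). Without the filter, *Nkx2-5* and *Pax2* (at most 9 reads) were called higher in *Smarcc1* knockdown. Several of the genes above, *Nodal*, *Tdgf1*, *Lefty1* and *Lefty2* among them, are also expressed by pluripotent cells, and the part of these or other cells in the levels above was not tested.

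**Figure D4:**
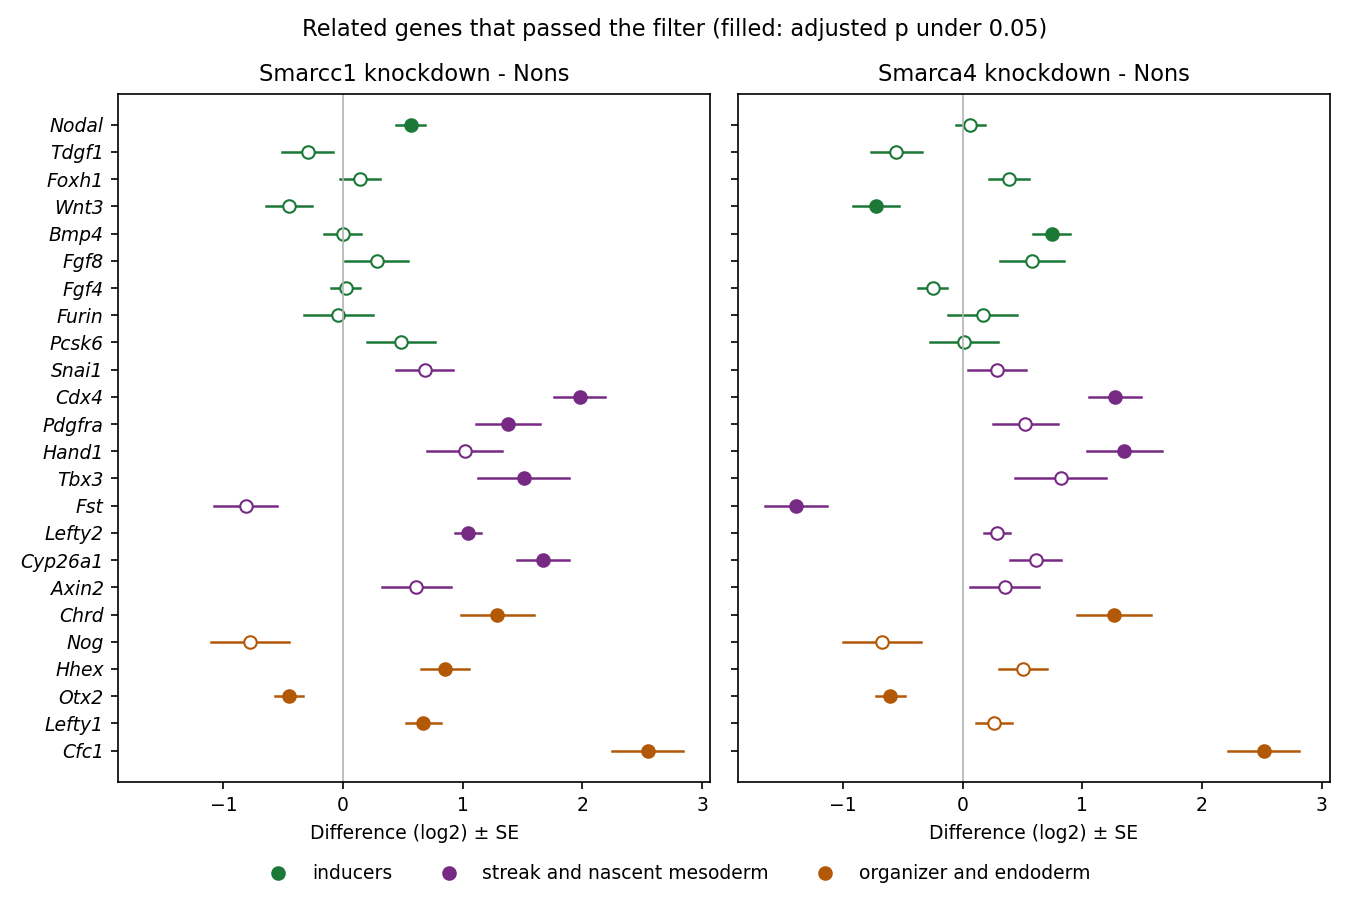
Differences from Nons on the log2 scale (horizontal axes, bars are SE) of the 24 related genes that passed the filter, in *Smarcc1* knockdown (left) and *Smarca4* knockdown (right), coloured by list. Filled points passed an adjusted p of 0.05. *Cfc1*, with 0 to 67 reads per library, has the highest point in both panels, at 2.55 and 2.52.

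Over the 20 libraries, the genes whose log2 level was most like that of *Eomes* among the 13296 tested were *Vps18* (Pearson r = 0.881), *Rreb1* (0.876) and *Slc39a4* (0.874). This is a description of 20 points that share series and days, and it carries no test. An antisense gene overlaps exons of *Eomes* by 118 bases (*Gm33460*) and of *Evx1* by 73 bases (*Evx1os*). Neither has an entry of its own, and the sources used here do not say whether reads were counted by strand, so reads of these partners may be counted with *Eomes* or *Evx1*.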

How the data were processed

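The authors trimmed the reads with trim_galore and aligned them to mm10 (tophat or hisat2 per the paper, HISAT2 per the submitters' processing notes). The deposited values are log2 rpm from SeqMonk, made with its quantitation pipeline for RNA-seq. The annotation used and the use of strand are not given in the sources used here. Groups, hairpins and days came from the sample titles. Whole reads and library totals were recovered from the log2 values, and below 1000 reads 100% of values came out whole (within 0.02 of a read).

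The main tests were limma-trend fits (limma 3.58.1, R 4.3.3) of 13296 genes whose log2 rpm averaged 0 or more, with 12 means of group and day, 8 residual degrees of freedom, Benjamini-Hochberg adjustment over all genes tested and a threshold of 0.05. As 8 of 9 members fell below the filter, their values come from the alternative without it, over 25965 entries. The exact permutation tests on rpm (any of the 3 libraries of a day playing Nons; days permuted within each series), and voom without a filter on entries with at least 10 summed reads, were added after seeing the data. The code was tested on simulated data. Exact Poisson intervals cover counting error only. Exon lengths and overlaps come from GENCODE M21 and promoter windows from RefSeq, both on GRCm38. Related genes named are at most the 4 largest changes past the threshold in each list. The members and lists were chosen with earlier results of these data known, and what those results already show is no independent support.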

Additional observations from a re-analysis of the deposited data

How the results depend on the processing

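The fall of *Eomes* from day 4 to day 5 passed under all 13 alternatives run (another pseudocount, centring, quantile normalization, voom on the recovered reads, the replicate block, a common lowest value, and leaving out hairpin series, days or the smallest library) and without the filter. Its differences from Nons passed in none of 15, with values of 0.08 to 0.74 in *Smarcc1* and 0.44 to 0.77 in *Smarca4* knockdown. From day 4 to day 5, 1 member was called in the test with a filter, 2 without it (*Eomes* and *Evx1*) and 3 without it by voom (*Mixl1* as well). From day 6 to day 7, 0 were called with the filter and 1 (*Lhx1*) by voom without it. The larger numbers come with 9 or 8 members tested in place of 1. With the replicate block, 1 member (*Eomes*) was called from day 5 to day 6 in place of 0, and it changed no other count of members. Over all 13296 genes it took the calls from 1412 to 605 in *Smarcc1* and from 892 to 258 in *Smarca4* knockdown against Nons, and from 544 to 105 between the knockdowns. The hairpin numbers name hairpins, and the deviations of hairpin pairs were correlated above 0.1 in 6 of 12 pairs of days (r from -0.206 to 0.823). Between days 5, 6 and 7 the *Smarcc1* hairpins gave 0.823, 0.583 and 0.443, while the *Smarca4* hairpins reached at most 0.367. The main tests leave this persistence out, and only the replicate block allows for it.

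Sparse members changed sign under some alternatives, none of these differences being called. *T* in *Smarcc1* knockdown was -0.33 with quantile normalization and -0.11 to 0.45 with hairpins or days left out. *Gsc* in *Smarcc1* knockdown was -0.58 with quantile normalization, -0.16 with a common lowest value, and -0.49 to 0.53 with hairpins or days left out, and in *Smarca4* knockdown it was -0.70 to 0.14. *Lhx1* was -0.016 to 1.02 in *Smarcc1* and -0.71 to 0.44 in *Smarca4* knockdown with hairpins or days left out. *Mixl1*, *Evx1* and *Mesp1* kept their signs in both knockdowns, while *Foxa2* in *Smarcc1* knockdown came to 0.00044 with quantile normalization, from 0.55. Fitted differences of *Cer1* are not reported. The stricter filter of 10 rpm tested no member. With 0 to 28 reads per library for 8 members, depth limits every statement on them.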
